A study of Mus musculus with 4 samples.

Results

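The nuclear genes for the subunits of oxidative phosphorylation were compared between visceral mesothelium of the omentum and parietal mesothelium of the body wall. Members were chosen by a rule on gene symbols, set with earlier results of these data known. The rule took genes beginning Ndufa, Ndufb, Ndufc, Ndufs, Ndufv, Uqcr, Atp5 or Cox4 to Cox8 together with Sdha to Sdhd. It left out the muscle isoforms Cox6a2, Cox7a1 and Cox8b. This gave 86 of the 19938 genes measured, of which 34 belong to complex I, 4 to complex II, 8 to complex III, 16 to complex IV and 17 to complex V, and 7 are complex I assembly factors with Ndufaf symbols. All 86 matched the RefSeq gene table by gene identifier under the same symbol, and they lie on 19 chromosomes.

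The data came from 4 one-colour Affymetrix Mouse Gene 1.0 ST arrays, 2 of visceral and 2 of parietal mesothelium. Both tissues were taken from untreated adult Wt1-cre;Rosa26ReYFP mice on a C57BL/6 background, in which Cre recombinase expressed from Wt1 switches on a yellow fluorescent reporter in mesothelial cells, so the 2 groups share genotype and treatment. Total RNA was extracted from the tissue as dissected, with the parietal layer teased away from the skeletal muscle beneath it, and no cell sorting preceded it. The paper states that nearly all of the input came from mesothelial cells, judged by the yellow fluorescent reporter. The arrays of each tissue are called biological replicates, but the animals behind each are not stated, and the p-values therefore measure the spread between these arrays.

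Oxidative phosphorylation passes electrons from NADH and succinate through complexes I, II, III and IV of the inner mitochondrial membrane to oxygen, and the proton gradient that complexes I, III and IV build drives ATP synthesis by complex V. Complex I takes electrons from NADH, complex II is also the succinate dehydrogenase of the citric acid cycle, complex III hands electrons to cytochrome c, and complex IV reduces oxygen. Most subunits are encoded in the nucleus and a few, all of them at the core of their complexes, in mitochondrial DNA. Heart and skeletal muscle are known for dense mitochondria and for their own isoforms of some complex IV subunits.

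Signal is given as log2 of the normalized array value, so that a difference of 1 is a doubling, and every difference is visceral minus parietal. A member was called when its Benjamini-Hochberg adjusted p from limma, corrected over all genes, was under 0.05 and its fold was at least 1.5. Array signals of different genes are not comparable as amounts.

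Most members had lower signal in visceral mesothelium, by a modest amount. The difference was below 0 for 80 of the 86 members, against 49.6% of all genes, and its median over the members was -0.33 (1.26-fold lower in visceral mesothelium), with an interquartile range from -0.52 to -0.16 and a full range from -1.09 to 0.57. Over all genes the median was 0.0015. The median signal of the members was 9.73 and 9.60 on the visceral arrays, against 9.95 and 10.03 on the parietal arrays, so both visceral arrays lay below both parietal arrays. For 72 members both visceral arrays lay below both parietal arrays, which held for 27.4% of all genes, and for 4 members both lay above, which held for 28.9%.

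By limma, 31 members were lower in visceral mesothelium at an adjusted p under 0.05, against 6.35% of all genes, and 1 member, Cox6b2, was higher, against 7.89%. With the fold minimum added, 12 members were called lower, against 4.39% of all genes, and none was called higher, against 5.22%. At an unadjusted p under 0.05 with the fold minimum, no member was higher by limma, against 5.54% of all genes, or by the methods' t-test, against 4.39%, while that t-test had 9 members lower, against 3.54%. None of the 19938 genes tested passed that t-test after adjustment. The paper reports probes past its adjusted p and fold thresholds from an ANOVA, and the reason for the disagreement was not tested. Among genes with a mean array signal above the median over all genes, the 74 members had a median difference of -0.40, with 72 below 0, against a median of 0.03 over all such genes. The counts of calls depended on single arrays. Lower members at an adjusted p under 0.05 numbered 9 when visceral replicate 2 was left out, against 4.12% of all genes, and 9 when parietal replicate 2 was, against 4.92%. With the fold minimum 5 were past both thresholds in the first case, against 3.72% of all genes, and 3 in the second, against 4.44%. On omitting visceral replicate 1 the count was 23, against 4.57%, and on omitting parietal replicate 1 it was 22, against 5.38%, with 18 past the fold minimum each time, against 4.03% and 4.78%. The adjustment mattered too: over all 35556 probe sets in place of the genes, 11 members were lower at an adjusted p under 0.05, against 4.07% of genes, and 0 were higher (2 at an unadjusted p under 0.05). Those 11 were Ndufs6, Ndufa9, Uqcrq, Uqcrc1, Uqcrc2, Cox5a, Cox4i1, Ndufa4l2, Atp5g1, Atp5g3 and Atp5c1, so that both passes in complex II and all 3 among the core subunits of complex I described next were lost under it. The number of members below 0 was 79 or 80 throughout. Because each array measured bulk tissue RNA, fewer cells of a type and less RNA per cell cannot be told apart in any of these differences.

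**Figure D1:**
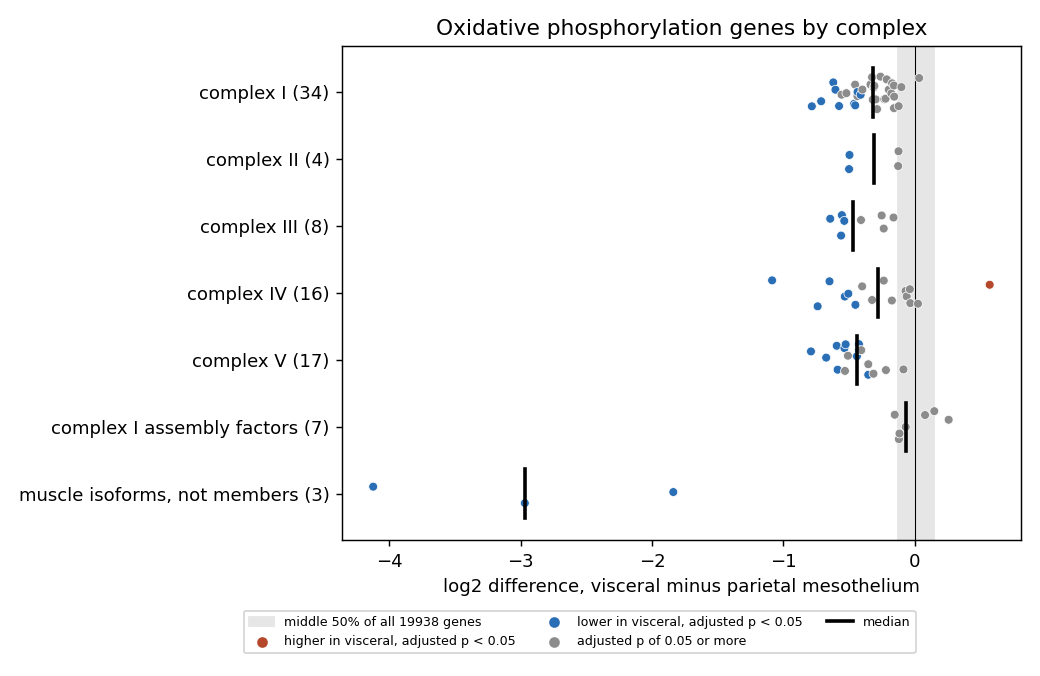
Each point is 1 gene, placed by its log2 difference, visceral minus parietal mesothelium (2 arrays each), with 1 row per complex and the number of genes in brackets. The grey band is the interquartile range of all 19938 genes and black bars are medians. All 5 complexes have medians between -0.47 and -0.28, the assembly factors lie at -0.07, and the 3 muscle isoforms, which are not members, lie between -4.12 and -1.84.

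In complex I, 33 of 34 subunits had a difference below 0, against 49.6% of all genes, with a median of -0.32. At an adjusted p under 0.05, 9 were lower in visceral mesothelium, against 6.35% of all genes. With the fold minimum 4 of them remained, against 4.39%. All 4 called subunits are accessory, meaning that they surround the catalytic core without carrying redox centres. Ndufb6, in the membrane arm, had 10.20 and 9.79 on the visceral arrays, against 10.71 and 10.85 on the parietal arrays. It was thus 1.72-fold lower in the visceral tissue (difference -0.78, standard error 0.15, adjusted p = 0.0234, limma). Ndufb9, also in the membrane arm, had 9.96 and 9.59 against 10.40 and 10.57 in parietal mesothelium, a difference of -0.71 (standard error 0.14, adjusted p = 0.0278, limma). In both genes visceral replicate 2 was the lowest array, and the visceral arrays lay further apart than the parietal ones.

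Ndufs6, an accessory subunit that binds zinc, had closer replicates, with 8.66 and 8.74 on the visceral arrays against 9.28 and 9.36 on the parietal arrays, a difference of -0.62 (standard error 0.09, adjusted p = 0.00763, limma). Ndufa9, which sits near the ubiquinone site, had 9.27 and 9.12 against 9.78 and 9.82 in parietal mesothelium, a difference of -0.60 (standard error 0.09, adjusted p = 0.00979, limma). The next subunit in size, Ndufa1, lay just under the fold minimum, with 8.001 and 7.73 on the visceral arrays against 8.41 and 8.48 on the parietal arrays and a difference of -0.58 (adjusted p = 0.0260, limma).

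The 6 measured core subunits, which hold the flavin and the iron-sulphur clusters, had a median difference of -0.44, against -0.31 for the 28 accessory ones. Core subunits were lower at the adjusted p in 3 of 6 cases and accessory ones in 6 of 28, against 6.35% of all genes. The difference between core and accessory subunits was not tested. Ndufv1, which binds NADH and the flavin, had 9.83 and 9.70 on the visceral arrays against 10.15 and 10.25 on the parietal arrays (difference -0.44, adjusted p = 0.0322, limma). Ndufs1, the largest iron-sulphur subunit, had 8.75 and 8.65 against 9.07 and 9.24 in parietal mesothelium (difference -0.45, adjusted p = 0.0332, limma). Ndufs3, beside them in the matrix arm, had 10.33 and 10.13 against 10.69 and 10.69 in parietal mesothelium (difference -0.46, adjusted p = 0.0317, limma). In each of these 3 genes both visceral arrays were below both parietal arrays and the difference exceeded the spread between replicates.

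The other 3 core subunits did not pass the adjusted p. Ndufv2, the partner of Ndufv1, had 10.67 and 10.44 on the visceral arrays against 10.93 and 11.09 on the parietal arrays (difference -0.45, adjusted p = 0.0544, limma). Ndufs8 differed by -0.26 (adjusted p = 0.306) and Ndufs7 by -0.21 (adjusted p = 0.153), both from limma. The visceral arrays of Ndufs7 were both at 12.05, against 12.25 and 12.28 in parietal mesothelium, so its replicates were closer than the tissues although the adjusted p missed the threshold. Ndufs5 was the only complex I subunit with a difference above 0, at 8.32 and 8.33 on the visceral arrays against 8.30 and 8.28 on the parietal arrays (difference 0.03, 95% interval -0.16 to 0.23). Ndufs4, whose loss in mice is a model of complex I deficiency, had an interval from -0.52 to 0.32 around a difference of -0.10, with overlapping arrays, and differed by 0.14 without visceral replicate 2.

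In complex II, Sdhb and Sdhd were lower in visceral mesothelium by 1.41-fold each, while the differences of Sdha and Sdhc did not pass the adjusted p. Sdhb, the iron-sulphur subunit, had 9.60 and 9.34 on the visceral arrays against 9.95 and 9.98 on the parietal arrays (difference -0.50, standard error 0.11, adjusted p = 0.0366, limma). Sdhd, one of the membrane anchors, had 9.78 and 9.62 against 10.21 and 10.18 in parietal mesothelium (difference -0.50, standard error 0.09, adjusted p = 0.0204, limma). Neither reached the fold minimum. Sdha, the flavoprotein that oxidizes succinate, had 10.86 and 10.86 on the visceral arrays against 10.89 and 11.08 on the parietal arrays (difference -0.13, 95% interval -0.37 to 0.11, adjusted p = 0.478, limma). Sdhc, the other anchor, had 10.47 and 10.47 against 10.60 and 10.58 in parietal mesothelium (difference -0.12, 95% interval -0.32 to 0.07, adjusted p = 0.390, limma). All 4 genes had both visceral arrays below both parietal arrays, which held for 27.4% of all genes. The 2 past the adjusted p stand beside 6.35% of all genes, and whether the 2 pairs differ from each other was not tested.

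In complex III all 8 subunits had both visceral arrays below both parietal arrays, against 27.4% of all genes. The median difference was -0.47, and 4 passed the adjusted p, against 6.35% of all genes. With the fold minimum 1 of them remained, against 4.39%. That member was Uqcrq, a small subunit of the membrane part, with 8.51 and 8.51 on the visceral arrays against 9.03 and 9.28 on the parietal arrays, or 1.56-fold lower (difference -0.64, standard error 0.11, adjusted p = 0.0151, limma). The core proteins Uqcrc1 and Uqcrc2, which face the matrix, differed alike. Uqcrc1 had 9.75 and 9.66 on the visceral arrays against 10.22 and 10.29 on the parietal arrays (adjusted p = 0.0111, limma), and Uqcrc2 had 11.33 and 11.22 against 11.80 and 11.88 in parietal mesothelium (adjusted p = 0.0120, limma), each with a difference of -0.56. Uqcr10, a small subunit, differed by -0.54 (adjusted p = 0.0250, limma). The Rieske iron-sulphur protein Uqcrfs1 had 7.47 and 7.55 on the visceral arrays against 7.82 and 8.02 on the parietal arrays (difference -0.41, adjusted p = 0.0529, limma) and so lay just outside the threshold. Uqcrh differed by -0.25, Uqcrb by -0.24 and Uqcr11 by -0.16, and none of these 3 passed the adjusted p. A further probe set of Uqcr11 differed by -0.45 (adjusted p = 0.18 over all probe sets, limma), nearer to the other subunits.

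In complex V all 17 subunits had a difference below 0, against 49.6% of all genes, with a median of -0.44. Both visceral arrays lay below both parietal arrays in 16, against 27.4% of all genes. Of the 17 genes 10 passed the adjusted p, against 6.35% of all genes, and 4 were called with the fold minimum, against 4.39%. The 3 genes that encode the same mature ring protein in the membrane, Atp5g1, Atp5g2 and Atp5g3, were all lower in visceral mesothelium. Atp5g1 had 10.95 and 10.64 on the visceral arrays against 11.65 and 11.52 on the parietal arrays, or 1.73-fold lower (difference -0.79, standard error 0.13, adjusted p = 0.0125, limma). Atp5g3 had 10.85 and 10.58 against 11.38 and 11.40 in parietal mesothelium, or 1.60-fold lower (difference -0.67, standard error 0.11, adjusted p = 0.0145, limma). Atp5g2 had 11.52 and 11.66 against 11.94 and 12.10 in parietal mesothelium (difference -0.42, adjusted p = 0.0452, limma), under the fold minimum. The ring genes thus had a median of -0.67, with Atp5g1 furthest from 0.

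Of the 5 genes for the catalytic head and its central stalk, 3 were lower at the adjusted p, against 6.35% of all genes. Atp5c1, the gamma subunit whose rotation couples the ring to the head, had 10.92 and 10.85 on the visceral arrays against 11.42 and 11.54 on the parietal arrays, or 1.51-fold lower (difference -0.59, standard error 0.09, adjusted p = 0.00967, limma). Atp5a1, the alpha subunit, had 11.33 and 11.25 against 11.67 and 11.79 in parietal mesothelium (difference -0.44, adjusted p = 0.0279, limma). Atp5b, the beta subunit that carries the catalytic sites, had 12.60 and 12.38 against 12.88 and 12.92 in parietal mesothelium and did not pass (difference -0.41, adjusted p = 0.0574, limma). Atp5e differed by -0.53 (adjusted p = 0.0189) and Atp5d by -0.31 (adjusted p = 0.0585), both from limma. The alpha and beta subunits thus lay on either side of the threshold with nearly the same difference.

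Atp5o, the subunit that joins the peripheral stalk to the head, had 9.79 and 9.56 on the visceral arrays against 10.25 and 10.28 on the parietal arrays, or 1.503-fold lower (difference -0.59, standard error 0.11, adjusted p = 0.0183, limma). It was the called member nearest to the fold minimum. The other stalk genes Atp5pb, Atp5h and Atp5j passed the adjusted p with differences of -0.54, -0.43 and -0.35, but a further probe set of Atp5pb differed by -0.29 (adjusted p = 0.308 over all probe sets, limma). Atp5k, a small membrane subunit, was nearest to 0 in this complex, with 8.39 and 8.53 on the visceral arrays, overlapping 8.45 and 8.65 on the parietal arrays (difference -0.09, 95% interval -0.35 to 0.18), and without parietal replicate 2 its difference was 0.014.

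**Figure D2:**
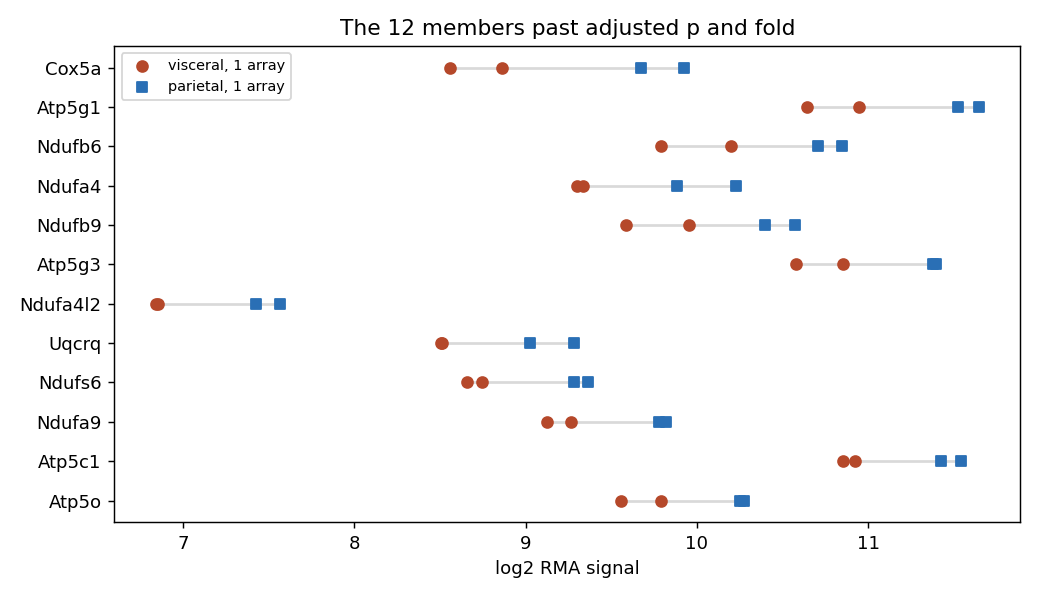
The 12 members past both the adjusted p and the fold of 1.5, each with its log2 RMA signal on the 2 visceral arrays (circles) and the 2 parietal arrays (squares), ordered by the difference. In every row both visceral arrays lie below both parietal arrays, and Cox5a, at the top, has the widest gap (-1.09).

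Complex IV had the widest range of differences of the 5 complexes, from -1.09 to 0.57, with a median of -0.28. The difference was below 0 in 14 of 16 genes, against 49.6% of all genes. At the adjusted p 6 genes were lower, against 6.35% of all genes, and 1 was higher, against 7.89%. Of the 6, 3 were called, against 4.39%. Cox5a, a subunit on the matrix side, differed most of all members, with 8.86 and 8.56 on the visceral arrays against 9.67 and 9.93 on the parietal arrays. It was 2.12-fold lower in visceral mesothelium (difference -1.09, standard error 0.14, adjusted p = 0.00617, limma). Its partner Cox5b had 11.04 and 10.90 against 11.30 and 11.44 in parietal mesothelium and lay just outside the threshold (difference -0.40, adjusted p = 0.0503, limma). Cox7b, a small membrane subunit, differed by -0.53 (adjusted p = 0.0388, limma).

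Among the 10 general subunits, those not tied to particular tissues, the median was -0.43. Of them 5 were lower at the adjusted p, against 6.35% of all genes. The 5 tissue-restricted isoforms had a median of -0.04, with a range from -0.65 (Ndufa4l2) to 0.57 (Cox6b2). At the adjusted p 1 of these isoforms was lower and 1 higher, against 6.35% and 7.89% of all genes. These isoforms were dim, with median signals of 6.85 and 6.87 on the visceral and 7.34 and 7.27 on the parietal arrays. The general subunits had 10.38 and 10.16 on the visceral and 10.58 and 10.58 on the parietal arrays. Whether signal level bears on the contrast was not tested. Cox4i1, the general form of the regulatory subunit 4, had 9.55 and 9.61 on the visceral arrays against 10.07 and 10.11 on the parietal arrays (difference -0.51, adjusted p = 0.0131, limma). Its lung-enriched isoform Cox4i2 had 7.49 and 7.53, overlapping 7.58 and 7.51 in parietal mesothelium (difference -0.04, 95% interval -0.24 to 0.17). Cox7b2 and Cox8c, isoforms known from testis, differed by 0.02 and -0.07 with overlapping arrays, and the sign of each turned in some of the alternative settings. Cox7a2l, which helps to join complexes III and IV, had 8.56 and 8.77, overlapping 8.73 and 8.72 in parietal mesothelium (difference -0.06). A second probe set of Cox7a2l differed by 0.13, the only further probe set of a member with the opposite sign.

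Cox6b2, an isoform known from testis, was the only member higher in visceral mesothelium at the adjusted p. It had 7.73 and 8.02 on the visceral arrays against 7.34 and 7.27 on the parietal arrays, a difference of 0.57 (standard error 0.12, 95% interval 0.28 to 0.86, adjusted p = 0.0284, limma), just short of the fold minimum. Its general counterpart Cox6b1 had 10.53 and 10.32 against 10.60 and 10.60 in parietal mesothelium (difference -0.17, 95% interval -0.42 to 0.07). The pass depended on single arrays and on the number of tests. The adjusted p was 0.0218 without visceral replicate 1 (difference 0.71, past the fold minimum), but 0.0802 when visceral replicate 2 was left out, 0.0502 and 0.0828 when parietal replicate 1 or 2 was, and 0.075 when all 35556 probe sets were tested (limma).

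Ndufa4, first named as a complex I subunit and now counted with complex IV, had 9.34 and 9.30 on the visceral arrays against 9.88 and 10.23 on the parietal arrays, or 1.67-fold lower (difference -0.74, standard error 0.13, adjusted p = 0.0172, limma). Its paralogue Ndufa4l2, known as a hypoxia-induced gene, had 6.85 and 6.84 against 7.42 and 7.56 in parietal mesothelium, or 1.57-fold lower (difference -0.65, standard error 0.09, adjusted p = 0.00735, limma). Both genes were thus lower in visceral mesothelium, with the wider replicate gap in the parietal arrays of Ndufa4.

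Subunits 6a, 7a and 8 of complex IV have a general form among the members and a heart and skeletal muscle form outside them, and in each set the muscle form had the larger difference. Cox8b, the muscle form of subunit 8, had 6.53 and 6.48 on the visceral arrays against 10.20 and 11.06 on the parietal arrays, or 17.4-fold lower (difference -4.12, standard error 0.27, adjusted p = 0.000531, limma). The general form Cox8a had 11.36 and 11.30, overlapping 11.40 and 11.34 in parietal mesothelium (difference -0.03, 95% interval -0.24 to 0.17). Cox6a2 had 8.40 and 8.37 against 11.02 and 11.69 in parietal mesothelium, or 7.83-fold lower (difference -2.97, standard error 0.21, adjusted p = 0.000754, limma). Its general form Cox6a1 had 10.23 and 9.99 against 10.56 and 10.57 in parietal mesothelium (difference -0.45, adjusted p = 0.0444, limma). Cox7a1 had 7.42 and 7.91 against 9.20 and 9.81 in parietal mesothelium, or 3.58-fold lower (difference -1.84, standard error 0.25, adjusted p = 0.00670, limma), and its general form Cox7a2 had 9.57 and 9.32 against 9.76 and 9.60 (difference -0.24, adjusted p = 0.269, limma). In all 3 muscle forms parietal replicate 2 was above parietal replicate 1. The 3 were set apart from the members by the selection itself and are given here as values.

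**Figure D3:**
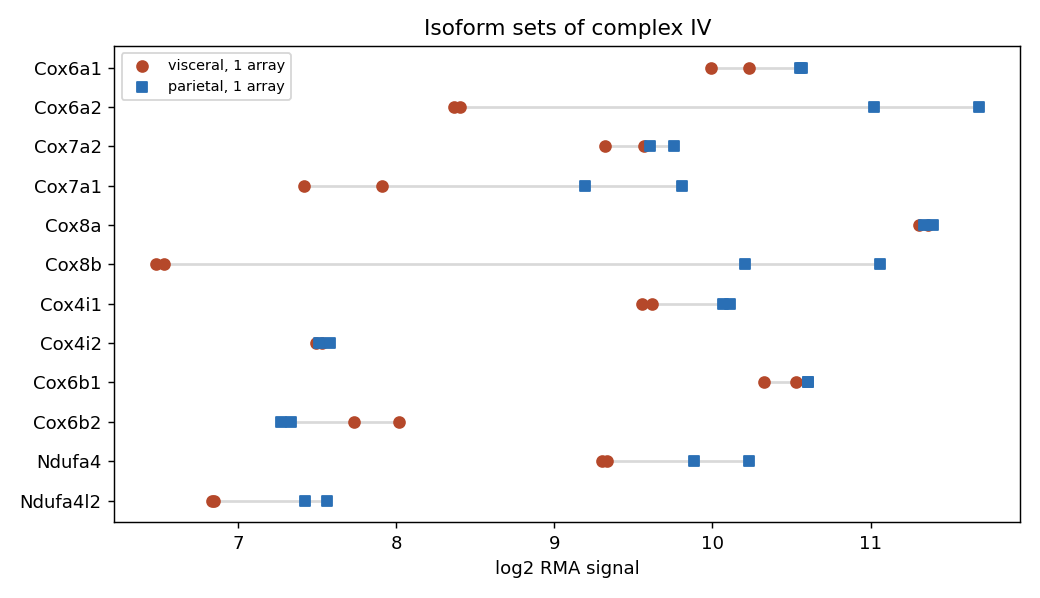
Log2 RMA signal of complex IV isoform sets on the 2 visceral arrays (circles) and the 2 parietal arrays (squares). The muscle forms Cox6a2, Cox7a1 and Cox8b have wide gaps between tissues, the general forms narrow ones (-0.45, -0.24 and -0.03), and Cox6b2 is the 1 set member plotted with both visceral arrays above both parietal arrays.

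The 7 assembly factors, which help build complex I but are not part of it, had differences on both sides of 0. Their median difference was -0.07, with 4 below 0 and 3 above, and none passed the adjusted p. Ndufaf4 and Ndufaf5 changed sign when a visceral array was left out. At an unadjusted p under 0.05 limma gave 0 lower and 1 higher, and the methods' t-test 0 lower and 2 higher. Ndufaf7, a methyltransferase, was furthest from 0, with 7.84 and 7.83 on the visceral arrays against 7.63 and 7.52 on the parietal arrays (difference 0.26, 95% interval 0.05 to 0.47, adjusted p = 0.118, limma). Ndufaf6 was nearest to 0, at -0.07. Without the 7 assembly factors the median over the remaining 79 members was -0.40.

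The members also varied together between arrays of the same tissue. Parietal replicate 2 was above parietal replicate 1 in 69 of 86 members, against 50.1% of all genes, with a median gap of 0.08. Visceral replicate 1 was above visceral replicate 2 in 60 of 86, against 48.9% of all genes, with a median gap of 0.09. These gaps are smaller than the median difference between tissues. The arrays left out with most effect on the counts of calls, visceral replicate 2 and parietal replicate 2, are those with the lowest and the highest member medians.

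**Figure D4:**
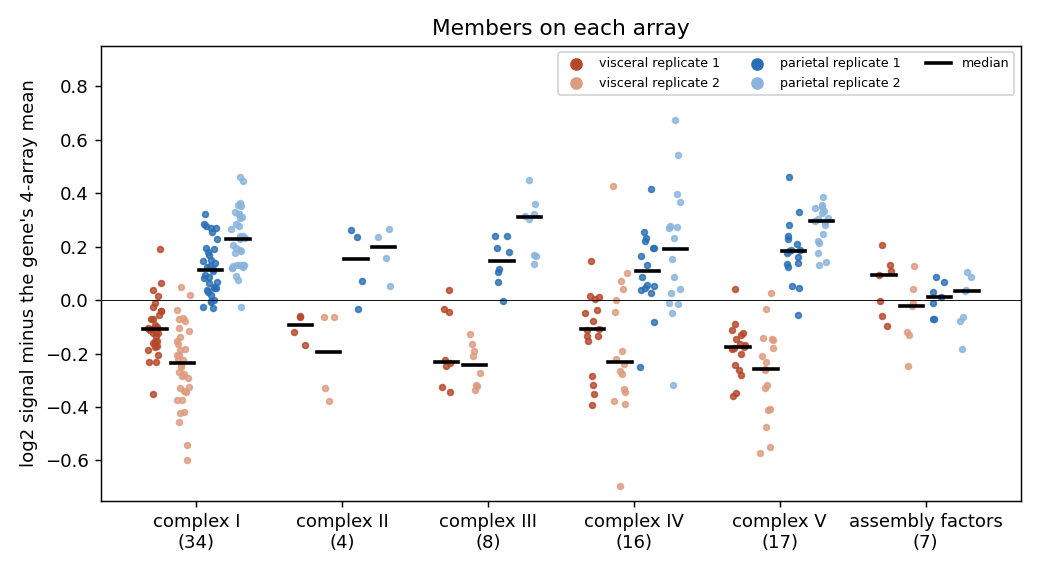
Log2 signal of each member minus its own mean over the 4 arrays, by complex, with black bars for medians and the number of genes in brackets. In the 5 complexes the medians of both visceral arrays lie below those of both parietal arrays, and the assembly factors show no such order.

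Promoters of the members were set beside these differences, since nuclear respiratory factor 1 (NRF1) and ETS factors such as GABP are known regulators of respiratory chain genes. RefSeq promoter windows of the GRCm38.p6 assembly, from 250 bases before to 50 after the start, were held for 71 members. The NRF1 motif was searched as 2 runs of GCGC parted by an A and then any base, and was found on either strand in 18 of these 71 (25.4%), against 7.87% of the 15563 array genes with a window. The ETS letters CCGGAAG were also found in 18 (25.4%), against 13.6%, the YY1 letters AAGATGGCG in 7 (9.86%), against 2.29%, and the oestrogen-related receptor letters TCAAGGTCA in 2 (2.82%), against 0.347%. At least 1 of the NRF1 and ETS motifs was found in 32 members, both in 4, and no matches of different motifs overlapped.

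The 120 bases before the start are shown for 5 members, chosen because they hold the NRF1 motif and span the differences, from called (Atp5c1, Ndufs6) through Sdhd, which passed the adjusted p only, to Sdha and Atp5k, which did not pass. Each runs 5′ to 3′ on the gene's strand, here always the minus strand, and capitals mark motif matches. They lie at chr2:10080433-10080552 (Atp5c1, 1 of 2 windows of the gene), chr13:73328483-73328602 (Ndufs6), chr9:50603850-50603969 (Sdhd), chr13:74350241-74350360 (Sdha) and chr5:108434400-108434519 (Atp5k).
Atp5c1: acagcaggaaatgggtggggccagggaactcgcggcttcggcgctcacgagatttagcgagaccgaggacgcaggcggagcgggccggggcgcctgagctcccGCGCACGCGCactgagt
Ndufs6: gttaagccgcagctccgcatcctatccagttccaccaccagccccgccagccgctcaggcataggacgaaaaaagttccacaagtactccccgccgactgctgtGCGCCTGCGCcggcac
Sdhd: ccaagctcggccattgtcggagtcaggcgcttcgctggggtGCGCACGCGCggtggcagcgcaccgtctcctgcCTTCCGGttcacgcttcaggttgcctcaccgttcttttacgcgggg
Sdha: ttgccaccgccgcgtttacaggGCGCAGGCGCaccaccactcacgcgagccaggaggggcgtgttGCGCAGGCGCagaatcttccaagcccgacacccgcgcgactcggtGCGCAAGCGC
Atp5k: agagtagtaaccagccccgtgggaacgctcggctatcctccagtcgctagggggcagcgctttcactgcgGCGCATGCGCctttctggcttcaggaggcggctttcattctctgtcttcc
In Atp5c1 and Ndufs6 the NRF1 match lies close to the start, at -17 and -16. The Sdhd stretch holds an NRF1 match at -79 and an ETS match, read on the other strand, at -46. The Sdha stretch holds 3 NRF1 matches, at -98, -55 and -10, and Atp5k 1, at -50, so matches were found in members that differed between tissues and in members that did not pass. Members with an NRF1 match had a median difference of -0.42, against -0.33 for those without. At the adjusted p 9 of 18 with a match and 15 of 53 without were lower, against 6.35% of all genes. For the ETS letters the medians were -0.39 with a match, 8 of 18 being lower, and -0.33 without, with 16 of 53. For the YY1 letters they were -0.35 with a match, 3 of 7 being lower, and -0.32 without, with 21 of 64. For the oestrogen-related receptor letters they were -0.59 with a match, 2 of 2 being lower, and -0.33 without, with 22 of 69. These are descriptions of short letter matches and carry no test.

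Other mitochondrial gene lists differed among themselves. Over all genes, 49.6% had a difference below 0, 6.35% were lower at the adjusted p and 4.39% were called lower. All 17 measured genes of the citric acid cycle and pyruvate dehydrogenase had a difference below 0, with a median of -0.40, and 7 were lower at the adjusted p, 3 of them called. Idh3a, a subunit of the NAD-dependent isocitrate dehydrogenase, differed by -0.80 (adjusted p = 0.0219), Suclg2 by -0.68 (adjusted p = 0.0229) and Pdha1, of pyruvate dehydrogenase, by -0.60 (adjusted p = 0.0163), all from limma. Of 13 mitochondrial carriers and channels, among them the outer membrane channels Vdac1, Vdac2 and Vdac3, 4 were lower at the adjusted p and 3 were called, with a median of -0.36. Slc25a4, the ADP/ATP carrier of heart and muscle, had 11.00 and 10.80 on the visceral arrays against 11.69 and 12.05 on the parietal arrays (difference -0.97, adjusted p = 0.00961, limma), followed by the aspartate/glutamate carrier Slc25a12 at -0.74 and the pyruvate carrier subunit Mpc1 at -0.71. The fourth was Vdac1, at -0.44 (adjusted p = 0.0449, limma), under the fold minimum.

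Cytochrome c itself, Cycs, carries electrons between complexes III and IV. It was the only called gene of 9 for cytochrome c and electron entry, against 4.39% of all genes called lower. It had 11.60 and 10.73 on the visceral arrays against 12.32 and 12.55 on the parietal arrays (difference -1.26, standard error 0.28, adjusted p = 0.0360, limma), with a wide gap between the visceral replicates. Cyc1, the cytochrome c1 of complex III that the symbol rule leaves out, differed by -0.55 (adjusted p = 0.0493, limma). The list's median was -0.18.

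The remaining lists had medians near 0. Their counts stand beside 6.35% of all genes lower at the adjusted p and 4.39% called lower. Fatty acid oxidation had 3 of 15 genes lower at the adjusted p and a median of -0.09, with 1 called, the medium-chain dehydrogenase Acadm (-0.65, adjusted p = 0.0100, limma). Coenzyme Q synthesis had 3 of 12 lower and a median of -0.03, with 1 called, Coq8a (-1.45, adjusted p = 0.00699, limma). The supercomplex and cristae list, which contains the member Cox7a2l, had 2 of 13 lower and a median of -0.11, with Chchd3 called (-0.91, adjusted p = 0.00502, limma). None of 19 import genes and none of 41 assembly factors, 7 of which are the Ndufaf members, passed the adjusted p by limma, with medians of -0.02 and -0.04. At an unadjusted p under 0.05, limma gave 3 import genes lower and, of the assembly factors, 3 lower and 3 higher. The methods' t-test gave 1 import gene lower and, of the assembly factors, 1 lower and 2 higher. None of the 13 mitochondrially encoded subunits was analysed here.

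Among 20 regulators of mitochondrial biogenesis, 2 were lower at the adjusted p, against 6.35% of all genes, and 1 was called, against 4.39%. Both counts were near these shares. The called gene was the coactivator Ppargc1b (-0.66, adjusted p = 0.00520, limma). Its relative Ppargc1a had 7.01 and 7.39 on the visceral arrays against 7.98 and 9.22 on the parietal arrays and did not pass (difference -1.40, adjusted p = 0.0770, limma), with its parietal arrays further apart than its visceral ones. Of the factors whose motifs were searched above, Nrf1 differed by 0.13, Gabpa by 0.19, Yy1 by -0.03 and Esrra by -0.11. Tfam, which maintains mitochondrial DNA, differed by -0.03. None of these genes passed the adjusted p. In Nrf1 and Gabpa both visceral arrays lay above both parietal arrays, which held for 28.9% of all genes.

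**Figure D5:**
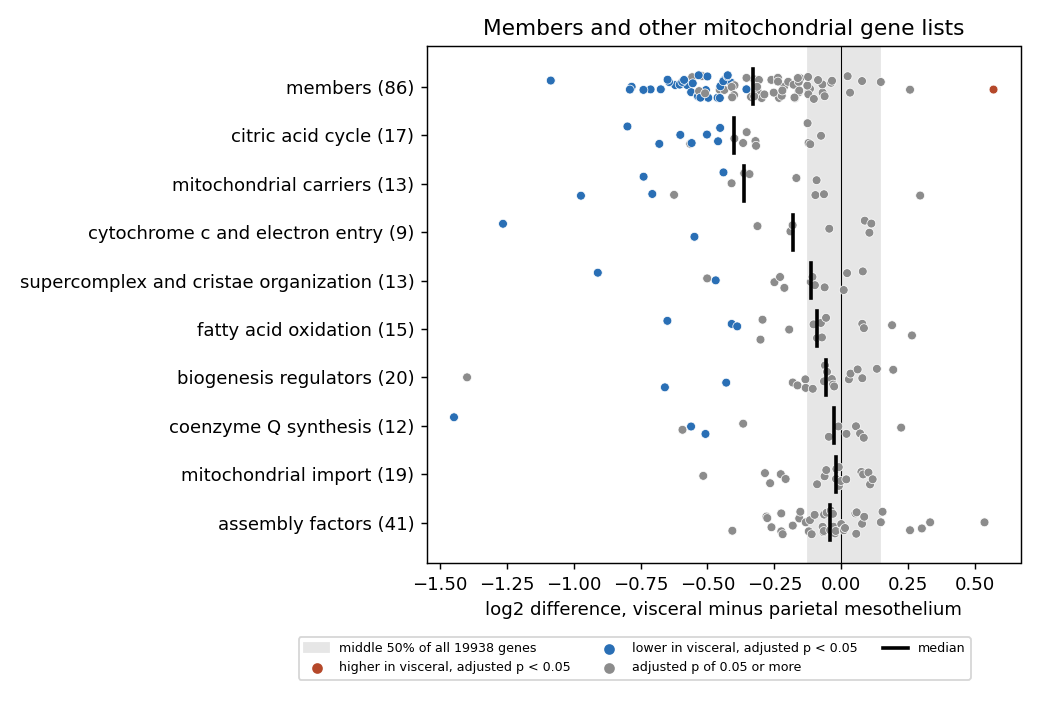
Log2 difference, visceral minus parietal mesothelium, of the 86 members and of 9 other mitochondrial gene lists, 1 point per gene, with black bars for medians and a grey band for the interquartile range of all genes. The citric acid cycle (-0.40) and the carriers (-0.36) have medians like that of the members (-0.33), and the import genes and assembly factors lie near 0.

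Markers of other cell types also differed between the tissues. Over all genes, 4.39% were called lower in visceral mesothelium and 5.22% higher. All 24 skeletal muscle contractile genes were called lower in visceral mesothelium, with a median difference of -4.72 (range -7.28 to -1.004). Their summed linear signal was 3394 and 3502 on the visceral arrays against 87145 and 113392 on the parietal arrays. Such sums, here and below, weigh the brightest genes most and are not amounts of a cell type. Of these 24 genes, 23 were above parietal replicate 1 on parietal replicate 2, the same order of parietal arrays as in 69 of the 86 members, and the median gap was 0.42. Macrophage markers were higher in visceral mesothelium in 9 of 10 cases, with summed signals of 22634 and 24084 against 6150 and 6956 in parietal mesothelium, and B cell markers in 4 of 5, with a median difference of 1.61. Of 12 adipocyte markers 1 was called, lower, and the median difference was -0.14. Their summed signals of 2124 and 2460 on the visceral arrays lay below 2931 and 2598 on the parietal arrays. Of 8 endothelial markers 2 were called, both lower, with a median difference of 0.07. The part of these cell types in the members' differences was not tested.

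Markers of mesothelium were measured in both tissues, and their summed signals over 14 genes were 50727 and 48303 in visceral and 81207 and 77739 in parietal mesothelium. These sums too weigh the brightest genes most. Of these 14 genes 7 were called lower in visceral mesothelium, against 4.39% of all genes, and 1, Wt1, higher, against 5.22%. Replicates correlated at 0.992 in visceral and 0.993 in parietal mesothelium (Pearson's r over all probe sets), and arrays of different tissues at 0.965 to 0.969. With 2 arrays against 2 an exact two-sided permutation test of a single value cannot go below p = 0.333, so no such test was used, and the number of arrays limits the precision.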

How the data were processed

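RNA of 2 visceral and 2 parietal mesothelium samples was hybridized to 1 Affymetrix Mouse Gene 1.0 ST array each. The authors deposited log2 values normalized by RMA (background correction, quantile normalization and a summary per probe set), and the submitters' processing notes name Partek 6.6. Quantile normalization assumes that the arrays share a distribution, and array medians were 7.38 to 7.41. Which annotation version the authors used is not given in the sources used here.

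Deposited values were used unchanged. Of 35556 probe sets, 21789 have 1 gene symbol in the platform annotation, 1621 several and 12146 none. Only those with 1 symbol were used, taking for each of 19938 genes the one with the highest mean. Of the members, 17 had several, with 25 further probe sets, 1 of opposite sign. Cox7c, Ndufb4, Ndufb4b and Ndufs5-ps share every probe set with another symbol and were not analysed here. Probe sets of members that have pseudogenes could measure both.

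The comparison used limma 3.58.1 (R 4.3.3) on all 4 arrays without a block, with Benjamini-Hochberg adjustment over all genes. This code was tested on simulated data. Members, lists and tests were chosen with earlier results of these data known. Genes named are all called members, the largest and smallest difference of each complex, catalytic subunits, isoform sets, up to 4 called genes per list, and a few others chosen after their values were seen (Ndufa1, Ndufs4, Cox5b, Atp5pb, Atp5h, Atp5j, Atp5e, Atp5d, Uqcrb, Uqcrh, Uqcr10, Uqcrc1, Uqcrc2, Cyc1, Vdac1, Ndufaf4, Ndufaf5 and the regulators not called). Motif letters were searched in RefSeq promoters of GRCm38.p6. Alternatives were the methods' t-test (a one-way ANOVA on the same values), other thresholds, variance priors, normalizations, probe set rules, a filter on dim genes, the replicate number as a block, and each array left out in turn. Scan dates were not used.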

Additional observations from a re-analysis of the deposited data

How the results depend on the processing

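The median difference of the members stayed between -0.40 and -0.29 under every alternative run, against -0.33 as reported: it was -0.35, -0.32 and -0.36 under 3 further normalizations, and -0.40 without assembly factors. The counts of calls moved more. As reported, 12 of 86 members were called lower and 0 higher, against 875 and 1040 of 19938 genes. A fold minimum of 1.2 or none gave 31 lower and 1 higher, against 1267 and 1574 genes. A fold of at least 2 gave 1 lower and 0 higher, against 457 and 521 genes. The methods' t-test gave 0 after adjustment, as for all 19938 genes (lowest adjusted p 0.0861). At an unadjusted p under 0.05 with the fold minimum that t-test gave 9 lower, against 3.54% of all genes. Leaving out 1 array, with the lone array of that tissue taken to vary like the others, gave 3 to 18 lower and 0 to 1 higher. Of the 12 calls, 2 (Cox5a and Atp5g1) held under all 4 omissions, and most losses came without visceral replicate 2 or parietal replicate 2. Testing all probe sets gave 8 calls, against 711 of 19938 genes called lower, with Ndufb6, Ndufa4, Ndufb9 and Atp5o lost. With no fold minimum that setting gave 11 lower members in place of 31, against 4.07% of all genes, a count added after seeing the data. Of 25 further probe sets of members, 4 (of Uqcr11, Cox7a2l, Atp5pb and Ndufb11) differed from the one used by over 1.5 times. Members with 1 probe set only, an alternative chosen after seeing the data, gave 11 calls and a median of -0.31.

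With the replicate number as a block, 12 members were called lower and 0 higher. With no fold minimum 36 members were lower under the block, against 8.02% of all genes. Without the block 31 were, against 6.35%. Deviations of same-numbered arrays correlated at 0.27 between tissues, with only 2 pairs, so the numbers were not taken to pair the samples.

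Over all 86 members, 7 changed sign under some normalization, probe set rule, block or omission, with reported differences from -0.15 to 0.078 and no adjusted p under 0.542 after the change. Cox7b2 was -0.0060 after quantile normalization and -0.066 to 0.11 when arrays were left out. Cox7a2l was 0.035 with the mean of its probe sets, 0.13 with the dimmest, and -0.16 to 0.042 when arrays were left out. Leaving out arrays gave -0.19 to 0.048 for Cox8c and -0.19 to 0.014 for Atp5k. Without visceral replicate 2 Ndufs4 was 0.14 and Ndufaf4 0.019, and without visceral replicate 1 Ndufaf5 was -0.090. The causes were not tested.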
